A study of Mus musculus with 9 samples.

Results

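Respiratory complexes III and IV, the ATP synthase and cytochrome c carry the second part of mitochondrial respiration, and their nuclear genes were described here in whole mouse heart. The genes were chosen by symbol, as every row that starts with Uqcr, Cox4, Cox5, Cox6, Cox7, Cox8 or Atp5, with Cyc1 and Cycs, and with a value above 0 in at least 3 of the 9 libraries. Of 45 such rows among 21989 in the table, 44 met the rule, because Cox8c was listed at 0 in every library. They comprise 9 genes of complex III, 17 of complex IV, 17 of the ATP synthase and cytochrome c. The filter on low values used for testing (at least 1 FPKM in at least 3 libraries) was passed by 43 of them and by 11380 genes in all. Cox7b2, a testis isoform, was the member that did not pass. It had 0.496, 0 and 0 FPKM in LD, 0, 0 and 0.822 in TAC and 0, 0 and 0.247 in sham. Atp5s and Atp5sl match the symbol rule, but the RefSeq table lists both as older names of the Dmac2 family, and they are not counted as enzyme subunits in textbooks. Both are kept in all counts and medians of the ATP synthase below. The table lists no mitochondrially encoded gene, so the catalytic core of complex IV and cytochrome b were not analysed here.

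The study measured poly-A RNA from heart tissue of male C57BL/6J mice at 18 to 20 weeks of age, with 3 libraries in each of 3 groups. The LD group had the TAC operation and received Lingguizhugan decoction, a herbal preparation. The TAC group had the same operation and received distilled water, and the sham group had a sham operation and distilled water. TAC is usually read as transverse aortic constriction, which loads the left ventricle with pressure, and the labels spell it out no further. Values are FPKM, fragments scaled by gene length and by the library total, and they are given for replicates 1, 2 and 3 of a group in that order. The labels speak of biological repeats, and the p-values measure the spread between these libraries alone.

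Complex III passes electrons from ubiquinol to cytochrome c and pumps protons. Complex IV hands the electrons to oxygen, and the ATP synthase lets the protons flow back through its rotating c-ring to make ATP. The heart depends on this pathway for most of its ATP, and several complex IV subunits exist as a heart and skeletal muscle form and as a liver form found in most tissues. Nuclear respiratory factor 1, ETS factors such as GABP, oestrogen-related receptors and YY1 are known regulators of these genes in mammals.

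The stretch of 250 bases before the start of 6 genes is shown, because the results below turn on them: the heart isoforms Cox7a1 and Cox8b, the liver isoform Cox6a1, the c-ring gene Atp5g2, the complex III gene Uqcr11 and Cycs. Sequences are from RefSeq on GRCm38.p6, in the direction of transcription, and capitals mark matches to the 7-letter cores GCATGCG (NRF1), CCGGAAG (ETS), TGACCTT (oestrogen-related receptors) and AAGATGG (YY1) or to their reverse complements. The windows lie at chr7:30183921-30184170 on the plus strand and, on the minus strand, at chr7:140900447-140900696, chr5:115348959-115349208, chr15:102671048-102671297, chr10:80406822-80407071 and chr6:50566570-50566819.
Cox7a1: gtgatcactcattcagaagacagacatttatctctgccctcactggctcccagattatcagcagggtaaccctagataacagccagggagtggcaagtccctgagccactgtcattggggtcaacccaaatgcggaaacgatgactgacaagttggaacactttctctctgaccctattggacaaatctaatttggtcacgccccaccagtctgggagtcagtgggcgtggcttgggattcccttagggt
Cox8b: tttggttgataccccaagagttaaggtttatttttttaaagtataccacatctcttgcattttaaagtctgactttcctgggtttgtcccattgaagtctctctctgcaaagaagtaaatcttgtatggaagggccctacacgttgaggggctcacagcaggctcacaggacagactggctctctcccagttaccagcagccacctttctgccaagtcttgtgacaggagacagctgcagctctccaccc
Cox6a1: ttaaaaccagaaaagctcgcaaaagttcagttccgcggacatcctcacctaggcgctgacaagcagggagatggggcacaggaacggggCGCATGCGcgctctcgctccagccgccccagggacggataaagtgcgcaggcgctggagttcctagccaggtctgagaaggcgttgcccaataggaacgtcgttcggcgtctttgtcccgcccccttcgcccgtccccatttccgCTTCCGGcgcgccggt
Atp5g2: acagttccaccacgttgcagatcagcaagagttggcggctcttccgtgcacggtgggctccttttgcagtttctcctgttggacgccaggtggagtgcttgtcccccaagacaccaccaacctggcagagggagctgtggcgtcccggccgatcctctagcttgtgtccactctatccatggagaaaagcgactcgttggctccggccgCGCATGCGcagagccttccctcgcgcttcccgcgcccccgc
Uqcr11: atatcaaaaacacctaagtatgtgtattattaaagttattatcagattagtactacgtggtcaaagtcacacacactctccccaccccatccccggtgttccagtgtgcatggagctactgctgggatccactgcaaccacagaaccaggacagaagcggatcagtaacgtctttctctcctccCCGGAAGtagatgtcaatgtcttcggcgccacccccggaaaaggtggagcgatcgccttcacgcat
Cycs: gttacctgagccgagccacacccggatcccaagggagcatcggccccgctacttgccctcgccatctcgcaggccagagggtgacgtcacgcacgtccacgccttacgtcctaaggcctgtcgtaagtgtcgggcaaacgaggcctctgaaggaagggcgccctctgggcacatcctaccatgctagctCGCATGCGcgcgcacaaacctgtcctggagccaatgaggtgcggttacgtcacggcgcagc

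Both heart isoforms shown hold none of the 4 cores in these letters, and neither does the window of the liver form Cox7a2, while that of the liver form Cox8a holds the ETS core. Cox6a2 was not matched. Cox6a1, Atp5g2 and Cycs each hold the NRF1 core, whose letters and reverse complement overlap by 6 bases in the run CGCATGCG, and Cox6a1 and Uqcr11 hold the ETS core. The longer window of Uqcr11, which adds 50 bases after the start, also holds the NRF1 core, but not within the 250 bases shown. RefSeq windows of 250 bases before and 50 after a start were found for 35 of the 45 rows, 39 windows in all. The NRF1 core was in 8 of these 39 windows (20.5%) and in 3.58% of all 32851 windows. The ETS core was in 10 (25.6%, against 8.86% of all), the YY1 core in 6 (15.4%, against 6.34%) and the oestrogen-related receptor half-site in 4 (10.3%, against 4.72%). In 19 of the 39 windows at least 1 of the cores was present. These are matches of letters and not sites of binding, and no match says only that the letters are not in the window.

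Library totals recovered from the FPKM steps ranged from 7.43 to 18.1 M fragments, with all 16262 genes above 0 coming out as whole fragments within 0.001. The recovered numbers are the smallest that come out whole. A gene above 0 in a single library comes out whole whatever its value, so the recovery is not tested by such genes. Heart muscle markers summed to 31940 to 47480 FPKM in LD, 27520 to 33260 in TAC and 32870 to 36540 in sham, with all 8 markers above 0. The 8 fibroblast markers summed to 443 to 560 FPKM in LD, 597 to 1243 in TAC and 396 to 556 in sham. Most of each fibroblast sum was Dcn, with 438, 915 and 705.5 FPKM in TAC and 259 to 337 in sham. In TAC replicate 1 Dcn, Pdgfra and Tcf21 were above every sham library, while Col1a1, Col1a2, Lum and Dpt lay within the sham range. Col3a1 (25.17 FPKM) was there below every sham library (27.65 to 56.25). The 6 liver markers summed to at most 11.8 FPKM. The 7 erythroid markers summed to 11050 FPKM in TAC replicate 2 and to 516 to 3343 in the other 8 libraries. Of the 6 atrial markers Bmp10 was at 0 throughout, and their sum, mostly Nppa, was 172 to 557 FPKM in LD, 105 to 453 in TAC and 70.7 to 107 in sham. LD replicate 3 stood apart in the atrial genes Myl7 (42.3 FPKM, and at most 7.51 in any other library) and Myl4 (27.0, and at most 7.22), and it had the highest heart muscle sum. Of the other atrial markers Sln (8.03 FPKM) and Nppa (477) were also highest in LD replicate 3. Gja5 went the other way, with 2.45 FPKM in LD replicate 3, the second lowest value after TAC replicate 3. The part of these markers in the group differences of the members was not tested. In tissue RNA, fewer muscle cells and less RNA per muscle cell cannot be told apart. No gene passed limma's adjusted p of 0.05 in any of the 3 comparisons, while voom on the recovered fragments called 4 genes in TAC against sham and 3 in LD against sham, none of them a member.

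TAC replicate 3 stood apart from the other libraries in these genes. It was the lowest of the 9 libraries for 25 of the 43 tested members and for 16.3% of all tested genes. It was the highest for 1 of these members and for 27.3% of all tested genes. The other 8 libraries were each highest for 4.1 to 12.8% of all tested genes, so this library was not set apart in the members alone. Its median member lay 0.50 below the sham mean on the log2(FPKM + 1) scale, while the other 8 libraries lay between -0.13 and 0.15. Over all tested genes the median of this library was 0.08 above the sham mean. Members took 3.83% of its fragments and 4.81 to 5.82% in the other libraries. A first principal component with 50.2% of the members' variance put it at 4.54, against -1.94 to 0.32 for the rest. Its heart muscle marker sum (27520 FPKM) was the lowest of all libraries, and its fibroblast marker sum (1098 FPKM) was the second highest. The heart muscle markers did not all go the same way. Tnnt2, Mybpc3 and Myl2 were lowest in TAC replicate 3 and Actc1 second lowest. Ttn (41.7 FPKM) was highest there of all libraries and Ryr2 (41.1) second highest, and Myh6 (2896) and Tnni3 (6338) were highest of the TAC group. Without TAC replicate 3 the log2 difference changed sign for 16 of the 43 tested members in TAC against sham and for 12 in LD against TAC. Values without it are given beside many of the results below.

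**Figure D1:**
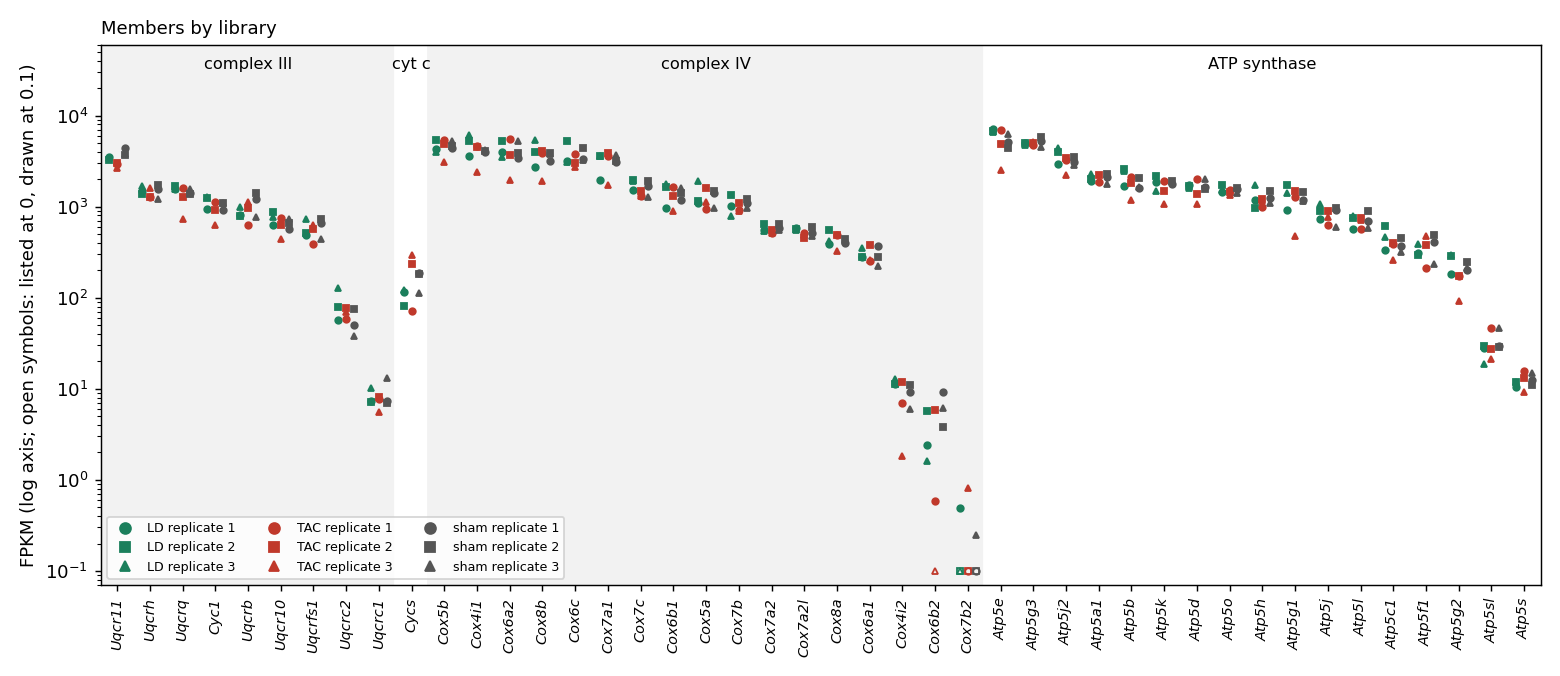
FPKM (log axis) of the 44 members in each of the 9 libraries, grouped by complex and sorted by mean; colours are the groups LD, TAC and sham and marker shapes the replicates. Atp5e and Atp5g3 lie highest, and Uqcrc1, Cox4i2, Cox6b2, Cox7b2, Atp5s and Atp5sl lie lowest, with Atp5sl reaching 46.5 FPKM in sham replicate 3, above Uqcrc2 at 38.4 in the same library.

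Levels per length spanned a wide range inside each complex. Atp5e, the epsilon subunit of the F1 head, was the highest member on average, with 7095, 6726 and 6536 FPKM in LD, 6908, 4908 and 2539 in TAC and 5067, 4420 and 6330 in sham. Atp5g3, Cox5b, Cox4i1 and Cox6a2 followed with means over the 9 libraries of 5009, 4608, 4292 and 4045 FPKM, and their ranges overlap. In complex III the small subunit Uqcr11 led with a mean of 3401 FPKM. This rank depends on the lengths the authors used. For Uqcrq, with a mean of 1415 FPKM, the length recovered from the FPKM steps was 1525 bases, while its main transcript has 405. For Uqcr11 both were close (436 and 445 bases). The electron carriers and core of complex III were lower than Uqcr11. Cyc1, which holds haem c1, averaged 1026 FPKM over all libraries, above the small subunits Uqcrb (966.5) and Uqcr10 (671.7). Uqcrfs1, the Rieske iron-sulphur protein, averaged 571 FPKM.

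The core proteins of complex III, Uqcrc1 and Uqcrc2, stood far below the other subunits of the complex. Uqcrc1 (chr9:108936633-108949623 on GRCm38) had 7.40, 7.15 and 10.3 FPKM in LD, 7.72, 8.12 and 5.56 in TAC and 7.27, 6.92 and 13.1 in sham. Uqcrc2 (chr7:120635176-120659524) had 56.6, 79.4 and 128 FPKM in LD, 58.4, 77.3 and 70.01 in TAC and 50.5, 75.4 and 38.4 in sham. These levels depend on the length the authors used: for Uqcrc1 the length recovered from the FPKM steps was 3312 bases, while its main transcript in GENCODE M21 has 1653 bases. For Uqcrc2 both lengths were close (1882 and 1896 bases), but 19.7% of its exon bases overlap Pdzd9, so its reads may be split.

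In TAC against sham the members were lower as a group, and no member passed the test. The log2 difference was below 0 for 39 of the 43 tested members, where 50% of all 11380 tested genes were below 0. The median member differed by -0.16, against 0.00 for all tested genes. By complex the median was -0.26 in complex III (8 of 9 below 0), -0.17 in complex IV (14 of 16) and -0.11 in the ATP synthase (17 of 17). An unadjusted limma p under 0.05 with a lower value in TAC was found for 3 members, Atp5g2, Cox6b2 and Uqcr11 (6.98%, with 2.58% of all tested genes), and with a higher value for none (2.85% of all). In either direction 5.43% of all tested genes had such a p. The groups did not overlap for 2 of these, Atp5g2 and Uqcr11 (4.65%, with 4.62% of all tested genes lower without overlap), a share near that of all genes. No member was higher without overlap, against 5.22% of all tested genes.

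Most of this difference sat in TAC replicate 3. Without it the median member differed by -0.04 (25 of 43 below 0), complex III by -0.12, complex IV by 0.08 and the ATP synthase by -0.04. Without sham replicate 2, the library with the highest member median in its group, 31 of 43 members were below 0 and the ATP synthase median was -0.06 (10 of 17). Over all single libraries left out the median ran from -0.30 to -0.12 in complex III, from -0.30 to 0.08 in complex IV and from -0.22 to -0.04 in the ATP synthase. Medians of the members in the other TAC libraries were -0.02 in replicate 1 and -0.05 in replicate 2, against -0.03, 0.15 and -0.10 in the sham libraries.

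In LD against TAC the members were higher as a group, again with no member past the test. Of the 43 tested members 37 had a log2 difference above 0, where 39.6% of all tested genes did. The median was 0.21 for the members and -0.10 for all tested genes, and by complex it was 0.23 in complex III (8 of 9 above 0), 0.20 in complex IV (16 of 16) and 0.21 in the ATP synthase (13 of 17). Atp5g2 and Cox4i2 had an unadjusted limma p under 0.05 with a higher value in LD (4.65%, with 2.51% of all tested genes), and no member did with a lower value (6.31% of all, and 8.82% in either direction). Without overlap and higher in LD were 4 members, Atp5g2, Cox7a2l, Cox7c and Uqcr11 (9.3%, with 3.73% of all tested genes), and none was lower without overlap (8.14% of all). The 6 members below 0, where 60.4% of all tested genes were, are Atp5f1, Atp5g3, Atp5s, Atp5sl, Cycs and Uqcrb. Without TAC replicate 3 the median was 0.13 (31 of 43 above 0), that of complex IV 0.07 (9 of 16) and that of the ATP synthase 0.10 (13 of 17). Without LD replicate 3 the complex III median was 0.05 (6 of 9), and without LD replicate 2 that of complex IV was 0.12 (12 of 16). Without TAC and LD replicates 3 together the medians were 0.05 for the members (27 of 43), 0.10 for complex III, -0.02 for complex IV and 0.05 for the ATP synthase.

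In LD against sham the members lay on both sides of 0. Their median was 0.02, with 25 of 43 above 0 (37.2% of all tested genes) and 18 below (62.8% of all), and the median of all tested genes was -0.11. By complex the median was 0.02, 0.06 and 0.01 for complex III, complex IV and the ATP synthase. No member had an unadjusted limma p under 0.05, against 5.11% of all tested genes (1.52% higher and 3.59% lower in LD). Atp5e and Cox4i2 were higher in LD without overlap (4.65%, with 4.47% of all tested genes), and Uqcr11 was lower without overlap (2.33%, with 8.76% of all).

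LD replicate 3 had a median 0.24 below the sham mean over all tested genes. Median-of-ratios scaling, which evens out such shifts, moved the median of all tested genes to 0.01 in LD against TAC and to -0.01 in LD against sham. The members' medians were then 0.35 (41 of 43 above 0) and 0.15 (35 of 43). Relative to the median of all tested genes the members stood at 0.31 in LD against TAC as deposited and at 0.34 after scaling. In LD against sham the same quantity was 0.13 as deposited and 0.15 after scaling. In TAC against sham it was -0.16 under both. The comparisons share libraries: TAC is the first group in TAC against sham and the second in LD against TAC, so a low TAC library moves both.

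**Figure D2:**
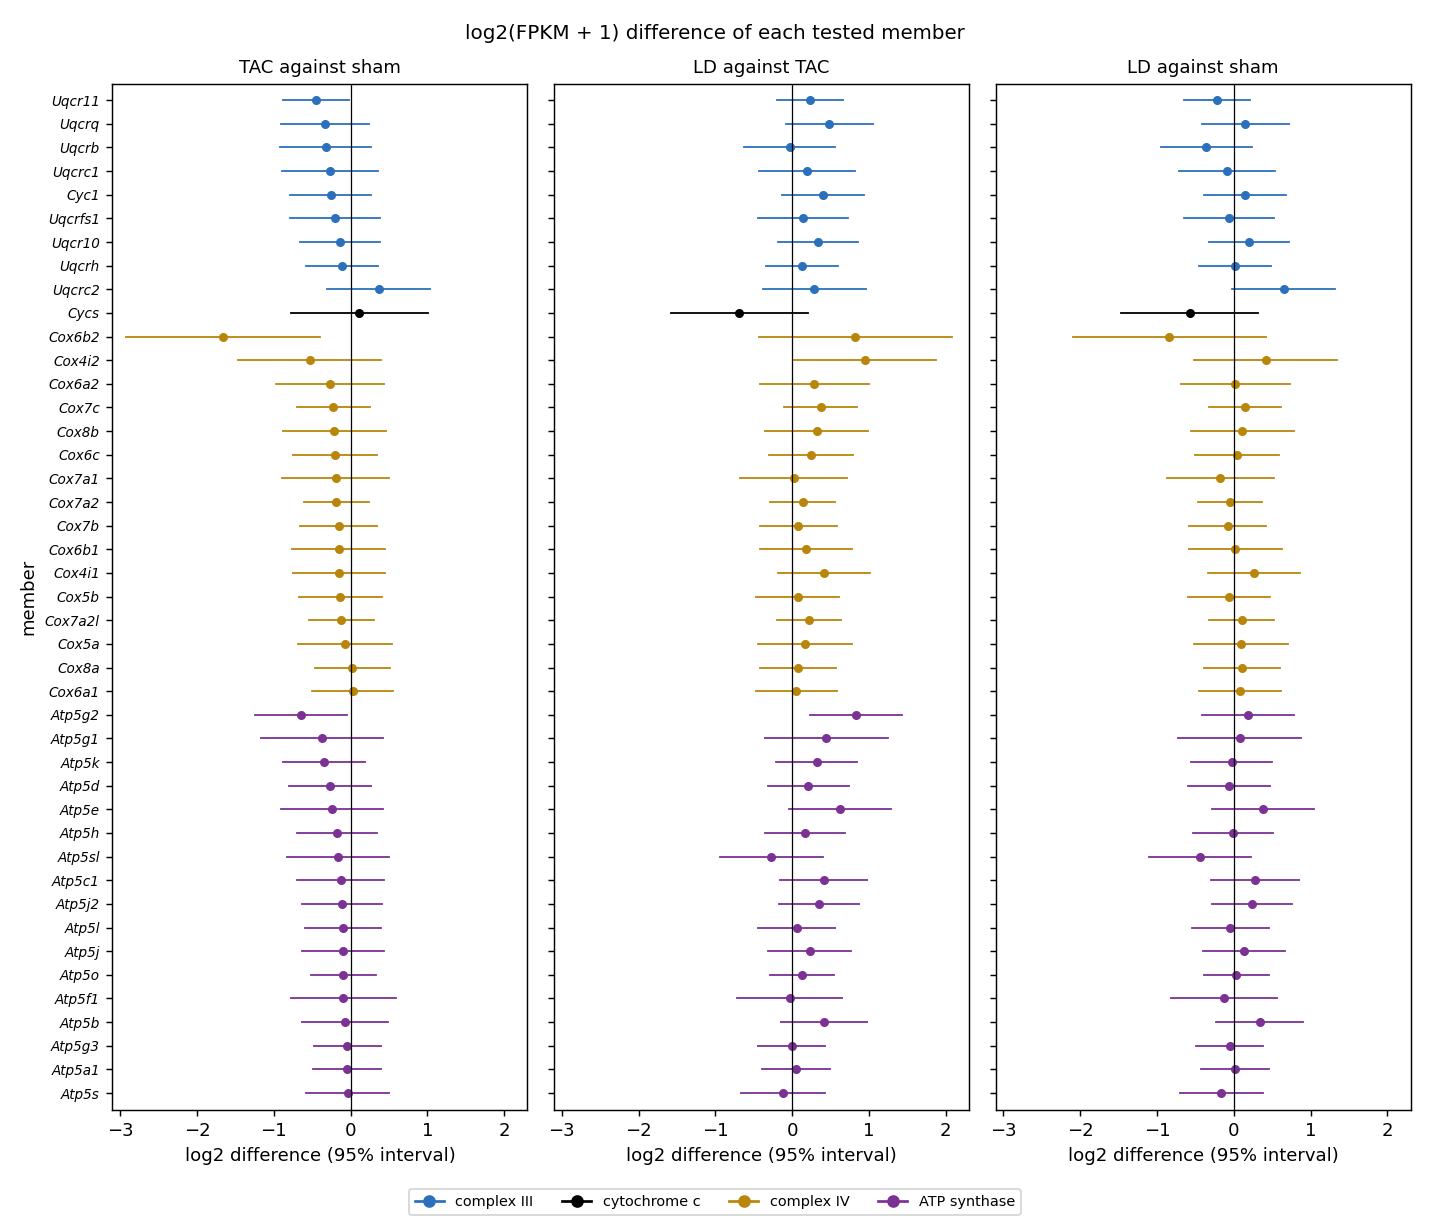
Differences in log2(FPKM + 1) of the 43 tested members with their 95% intervals from limma, in TAC against sham, LD against TAC and LD against sham, coloured by complex. Most points of TAC against sham lie left of 0 and most of LD against TAC right of 0, while nearly all intervals span 0.

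Among the small subunits of complex III, Uqcr11, the subunit of the complex also called subunit 10, was the one with the smallest p in TAC against sham. It had 3487, 3267 and 3375 FPKM in LD, 2934, 3029 and 2672 in TAC and 4431, 3679 and 3733 in sham. All TAC libraries were below all LD libraries, and all LD libraries below all sham libraries, so the 3 groups did not overlap. The differences were -0.45 ± 0.20 (SE) in TAC against sham (limma adjusted p = 0.904), 0.23 ± 0.20 in LD against TAC and -0.22 ± 0.20 in LD against sham. Without TAC replicate 3 the value in TAC against sham was -0.40, and over the single libraries left out it ran from -0.50 to -0.37. Its exons overlap no other gene and it shares no stretch of 100 bases with another transcript.

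Uqcrc2 had the largest difference above 0 among members in TAC against sham (0.36 ± 0.31) and in LD against sham (0.65 ± 0.31, limma adjusted p = 0.875). LD replicate 3 was its highest library and sham replicate 3 its lowest, and the groups overlapped. Without LD replicate 3 the difference between LD and sham was 0.34, and over the single libraries left out that between TAC and sham ran from 0.14 to 0.62. Uqcrc1 differed by -0.27 ± 0.29 in TAC against sham and 0.19 ± 0.29 in LD against TAC, with sham replicate 3 above the other 8 libraries. The values were -0.13 and 0.04 without TAC replicate 3, and that in TAC against sham was -0.01 without sham replicate 3.

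Cyc1 had 944, 1239 and 1273 FPKM in LD, 1132, 917 and 620.3 in TAC and 928, 1097 and 1086 in sham. TAC replicate 3 was its lowest library, and the difference was -0.26 ± 0.25 in TAC against sham and 0.40 ± 0.25 in LD against TAC. Without that library the values were -0.02 and 0.16. Uqcrfs1 had 486, 515 and 732 FPKM in LD, 384, 566 and 632 in TAC and 661, 727 and 435 in sham, with TAC replicate 1 lowest. Its difference was -0.20 ± 0.27 in TAC against sham and 0.14 ± 0.27 in LD against TAC. The values without TAC replicate 3 were -0.35 and 0.28. The other 4 members of complex III are Uqcrb and Uqcrq, which sit near cytochrome b, Uqcrh, the hinge protein near cytochrome c1, and Uqcr10. They differed by -0.33 to -0.11 in TAC against sham and by -0.03 to 0.48 in LD against TAC, with Uqcrb (-0.03 ± 0.28) the only 1 of the 9 complex III members below 0 in LD against TAC. These 4 differed by -0.50 to 0.07 in TAC against sham and by 0.13 to 0.24 in LD against TAC without TAC replicate 3, and all 9 were then above 0 in LD against TAC. Uqcrq had the largest of these differences in LD against TAC, at 0.48 ± 0.27 (limma adjusted p = 0.594). It had 1555, 1689 and 1554 FPKM in LD, 1611, 1269 and 728 in TAC and 1394, 1367 and 1566 in sham, and TAC replicate 3 lay well below all other libraries. Without that library the difference was 0.16.

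Cytochrome c, the mobile carrier between complexes III and IV, differed in direction from most members. Cycs had 117, 81.9 and 122 FPKM in LD, 71.8, 234 and 291 in TAC and 187, 182 and 114 in sham. TAC replicates 2 and 3 were the highest of the 9 libraries and TAC replicate 1 the lowest, so the TAC group spanned the whole range. Its difference was 0.11 ± 0.42 in TAC against sham, -0.69 ± 0.42 in LD against TAC (limma adjusted p = 0.622) and -0.57 ± 0.42 in LD against sham. Leaving out TAC replicate 3 gave -0.27 in TAC against sham and -0.30 in LD against TAC. Leaving out TAC replicate 1 gave 0.73 and -1.30. Of the 100-base stretches in its transcript 24.7% recur in the predicted genes Gm10053, Gm10108 and Gm13772, so its reads may be shared.

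**Figure D3:**
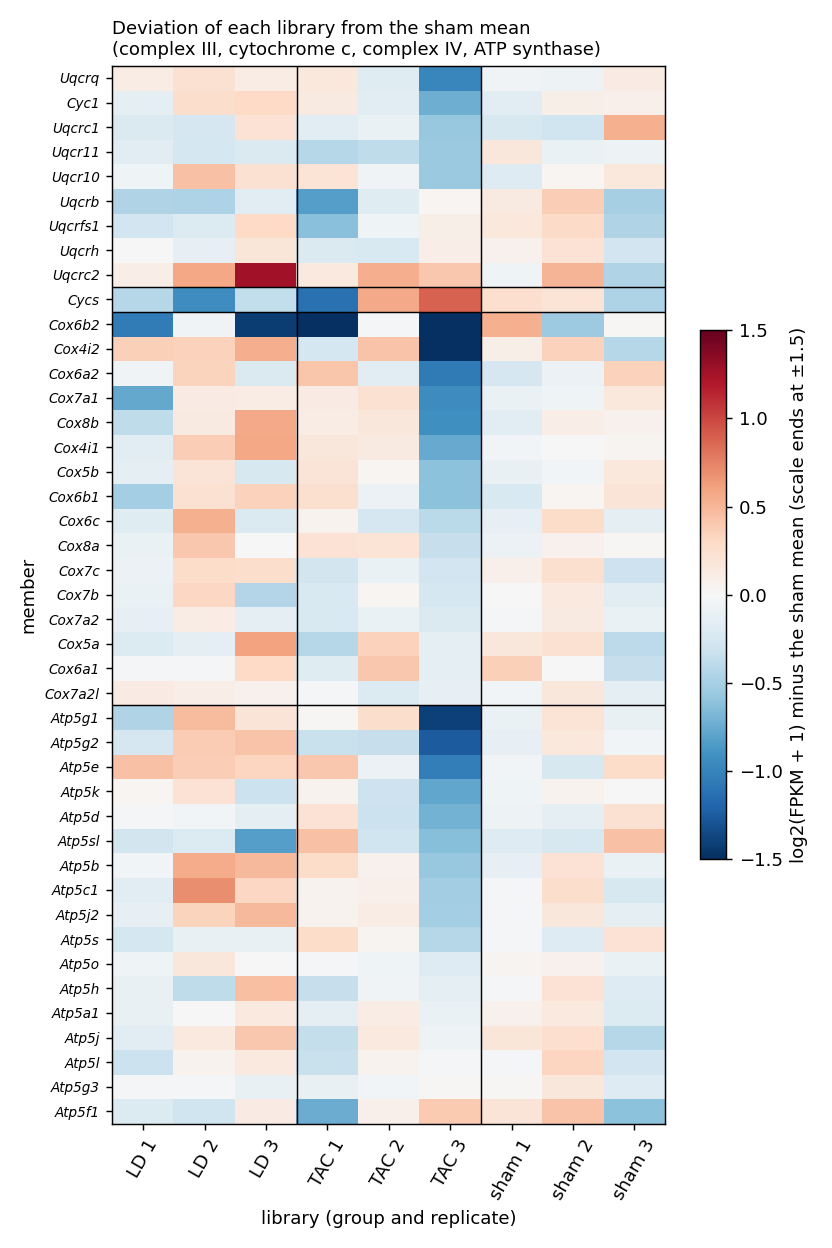
Colour map of log2(FPKM + 1) minus the sham mean for the 43 tested members (rows, by complex) in the libraries of LD, TAC and sham (columns); blue is below and red above the sham mean, and the scale ends at 1.5 in both directions. TAC replicate 3 is a mostly blue column in all complexes, with Cycs, Uqcrc2 and Atp5f1 in red.

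Complex IV subunits with a heart and a liver form were read as pairs. Cox6a2, the heart form of subunit 6a (chr7:128205435-128206387), had 3979, 5186 and 3534 FPKM in LD, 5509, 3676 and 1970 in TAC and 3446, 3862 and 5246 in sham. Cox6a1, the liver form (chr5:115345642-115348981), had 278, 281 and 349 FPKM in LD, 250.0, 377 and 258 in TAC and 365, 283 and 223 in sham. The heart form took 93.5, 94.9 and 91.0% in LD, 95.7, 90.7 and 88.4% in TAC and 90.4, 93.2 and 95.9% in sham of the summed FPKM of both. TAC replicate 3 had the lowest share and sham replicate 3 the highest. The log2 ratio of Cox6a2 to Cox6a1 averaged 3.80 ± 0.44 in LD, 3.56 ± 0.80 in TAC and 3.86 ± 0.66 in sham (SD, n = 3 each), and the groups overlapped.

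For subunit 7a the heart form is Cox7a1 (chr7:30184144-30186078), with 1946, 3629 and 3592 FPKM in LD, 3623, 3905 and 1722 in TAC and 3107, 3181 and 3703 in sham. The liver form Cox7a2 (chr9:79755361-79759878) had 548, 644 and 540.3 FPKM in LD, 507, 556 and 511 in TAC and 585, 651 and 554 in sham. Cox7a1 took 78.0, 84.9 and 86.9% in LD, 87.7, 87.5 and 77.1% in TAC and 84.2, 83.0 and 87.0% in sham. LD replicate 1 and TAC replicate 3 were both low in the heart form, and the liver form varied little (9.14% coefficient of variation over the 9 libraries). The log2 ratio averaged 2.35 ± 0.47 in LD, 2.47 ± 0.62 in TAC and 2.48 ± 0.23 in sham (SD, n = 3 each).

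For subunit 8 the heart form is Cox8b (chr7:140898945-140900446), with 2752, 3928 and 5328 FPKM in LD, 3876, 4036 and 1889 in TAC and 3191, 3842 and 3764 in sham. The form of other tissues, Cox8a (chr19:7215153-7217616), had 390.1, 555 and 420.3 FPKM in LD, 488, 482 and 329 in TAC and 395, 439 and 423 in sham. Cox8b took 87.6, 87.6 and 92.7% in LD, 88.8, 89.3 and 85.2% in TAC and 89.0, 89.7 and 89.9% in sham. LD replicate 3 had the highest share and TAC replicate 3 the lowest. The log2 ratio averaged 3.10 ± 0.49 in LD, 2.86 ± 0.29 in TAC and 3.10 ± 0.07 in sham (SD, n = 3 each). Cox8c, a testis form, was listed at 0 in every library.

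None of the 9 comparisons of these ratios differed beyond the spread of the libraries. The differences in TAC against sham were -0.30 for subunit 6a, -0.01 for 7a and -0.24 for 8 (two-sided exact permutation p = 0.6, 1 and 0.2). In LD against TAC they were 0.24, -0.12 and 0.24 (exact p = 0.7, 0.6 and 0.6), and in LD against sham -0.06, -0.13 and 0.00 (exact p = 1, 0.8 and 1). All 9 had a Benjamini-Hochberg adjusted p of 1, and with 3 libraries against 3 the exact test cannot go below 0.1. All 3 heart shares were at their lowest in TAC replicate 3. Without it the ratio differences in TAC against sham were 0.02 for subunit 6a, 0.35 for 7a and -0.07 for 8.

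**Figure D4:**
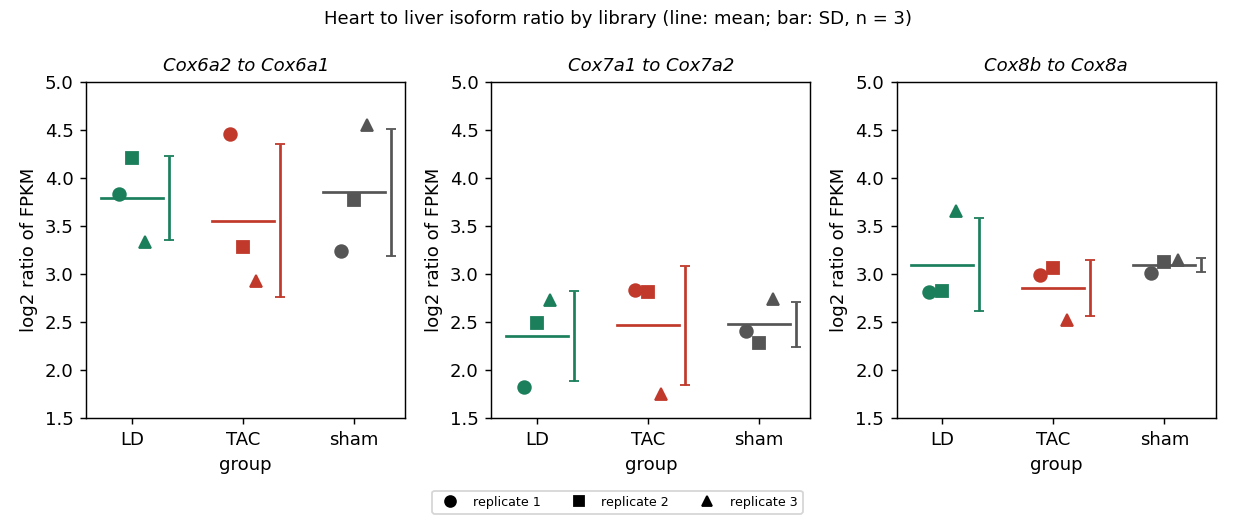
Log2 ratio of the heart to the liver form of subunits 6a, 7a and 8 of complex IV in each library of LD, TAC and sham; shapes are replicates, lines are means and bars the SD over 3 libraries. The heart form exceeds the liver form in all 9 libraries for all 3 pairs, and TAC replicate 3 has the lowest ratio in each panel.

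Cox4i1, the main form of the largest nuclear subunit of complex IV, had 3621, 5251 and 6099 FPKM in LD, 4576, 4455 and 2410 in TAC and 3959, 4082 and 4175 in sham. Cox4i2, a form known from lung and induced by low oxygen, had 11.2, 11.2 and 12.9 FPKM in LD, 6.97, 11.8 and 1.82 in TAC and 9.12, 11.1 and 6.07 in sham. It made up 0.308, 0.212 and 0.211% of the summed FPKM of both in LD, 0.152, 0.264 and 0.076% in TAC and 0.23, 0.272 and 0.145% in sham. The 36 fragments behind Cox4i2 in TAC replicate 3 were the fewest of any library. The difference was 0.94 ± 0.43 in LD against TAC (limma adjusted p = 0.562), and 0.33 without TAC replicate 3. LD was above sham in all libraries, if barely at the nearest values (11.2 FPKM in LD replicate 2 and 11.1 in sham replicate 2), with a difference of 0.41 ± 0.43. Its recovered length of 2202 bases is longer than its main transcript of 727 bases, so its level relative to Cox4i1 depends on that length.

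Cox6b1, the common form of subunit 6b, had 977, 1626 and 1759 FPKM in LD, 1644, 1303 and 902 in TAC and 1185, 1420 and 1590 in sham. Cox6b2, its testis form, had 2.40, 5.74 and 1.61 FPKM in LD, 0.579, 5.88 and 0 in TAC and 9.13, 3.79 and 6.10 in sham. Sham libraries were higher than most others, but LD replicate 2 and TAC replicate 2 lay inside the sham range. Cox6b2 rests on 11, 64 and 16 fragments in LD, 3, 54 and 0 in TAC and 102, 34 and 56 in sham. It had the smallest p of the members in TAC against sham, -1.66 ± 0.59 (limma adjusted p = 0.772), with -1.09 without TAC replicate 3, -2.48 without TAC replicate 2, -3.03 with a pseudocount of 0.1 and -2.75 with voom on the recovered fragments. In LD against sham it differed by -0.84 ± 0.59.

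Cox7a2l, which is related to subunit 7a and helps to join complexes III and IV and which C57BL/6J mice are known to carry in a shortened form, had 575, 565 and 552 FPKM in LD, 517, 455 and 482 in TAC and 513, 591 and 479.8 in sham. LD was above TAC in all libraries, with a difference of 0.22 ± 0.20 (limma adjusted p = 0.717). Cox7c, a small subunit of complex IV, also had no overlap between LD and TAC: it had 1505, 1936 and 1916 FPKM in LD, 1320, 1490 and 1311 in TAC and 1691, 1886 and 1289 in sham. Its difference was 0.37 ± 0.22 (limma adjusted p = 0.615), and 44.4% of its 100-base stretches recur in the predicted genes Gm10012 and Gm12338. Cox7b, another small subunit, had 1007, 1349 and 795 FPKM in LD, 921, 1107 and 899 in TAC and 1088, 1203 and 970.3 in sham, and its groups overlapped. The remaining members of complex IV, Cox5a, Cox5b and Cox6c, differed by -0.20 to -0.08 in TAC against sham and by 0.07 to 0.25 in LD against TAC, and without TAC replicate 3 by -0.10 to 0.11 and by -0.18 to 0.14.

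In the ATP synthase, 3 genes encode the same c-ring protein with different import sequences. Atp5g3 (chr2:73908447-73911326) had 5019, 5037 and 4727 FPKM in LD, 4752, 4956 and 5167 in TAC and 5193, 5766 and 4467 in sham. Atp5g1 (chr11:96068852-96075670) had 912, 1733 and 1426 FPKM in LD, 1265, 1495 and 472 in TAC and 1167, 1439 and 1152 in sham. Atp5g2 (chr15:102662864-102672352) had 184, 286 and 294 FPKM in LD, 173, 172 and 91.4 in TAC and 202, 245 and 213 in sham. Atp5g3 was the most even member of the whole set, with a coefficient of variation of 7.32% over the 9 libraries, against 30.1% for Atp5g1 and 30.4% for Atp5g2. Both variable genes were lowest in TAC replicate 3.

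All TAC libraries of Atp5g2 were below all LD and all sham libraries. Its difference was -0.65 ± 0.28 in TAC against sham (limma adjusted p = 0.902) and 0.83 ± 0.28 in LD against TAC (limma adjusted p = 0.537), the smallest p among members in that comparison. Between LD and sham the difference was 0.18 ± 0.28. Without TAC replicate 3 the values were -0.34 in TAC against sham and 0.53 in LD against TAC. Every 100-base stretch of its main transcript recurs in the predicted genes Gm10175 or Gm10231, so how the authors' counting split those reads bears on its level. Of the summed FPKM of the c-ring genes, Atp5g3 took 82.1, 71.4 and 73.3% in LD, 76.8, 74.8 and 90.2% in TAC and 79.1, 77.4 and 76.6% in sham. TAC replicate 3 had the highest Atp5g3 share and LD replicates 2 and 3 the lowest. Of the 100-base stretches of Atp5g1 57.3% recur in the predicted gene Gm10039, while Atp5g3 shares none. The counting of those reads bears on these shares as well.

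Atp5b, the catalytic beta subunit of the F1 head (chr10:128083273-128090391), had 1697, 2575 and 2451 FPKM in LD, 2117, 1823 and 1177 in TAC and 1600, 2035 and 1635 in sham. Its difference was -0.08 ± 0.26 in TAC against sham, 0.41 ± 0.26 in LD against TAC and 0.34 ± 0.26 in LD against sham (95% interval -0.23 to 0.90), and the groups overlapped in all 3. The first 2 values were both 0.17 without TAC replicate 3. Atp5a1, the alpha subunit that alternates with it, was among the most even members (1773 to 2269 FPKM, 9.29% coefficient of variation). Atp5e, whose values are given above, was lowest in TAC replicate 3 and differed by 0.62 ± 0.31 in LD against TAC (limma adjusted p = 0.579), and by 0.22 without that library. All LD libraries of Atp5e were above all sham libraries, with a difference of 0.38 ± 0.31 (limma adjusted p = 0.879).

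Atp5s and Atp5sl, the non-subunit rows, were among the few members with a log2 difference below 0 in LD against TAC. Atp5s had 10.5, 11.7 and 11.8 FPKM in LD, 15.6, 13.2 and 9.25 in TAC and 12.6, 11.04 and 15.03 in sham. Atp5sl had 27.8, 29.4 and 18.6 FPKM in LD, 46.3, 27.4 and 21.4 in TAC and 29.4, 28.5 and 46.5 in sham. Their groups overlapped. The differences in LD against TAC were -0.12 ± 0.25 and -0.27 ± 0.31, and median-of-ratios scaling turned the first to 0.01. Without TAC replicate 3 that of Atp5sl was -0.51, and without TAC replicate 1 it was 0.03. Atp5sl differed by -0.44 ± 0.31 in LD against sham.

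The other ATP synthase members form the central stalk (Atp5c1, gamma, and Atp5d, delta), the outer stalk (Atp5f1, Atp5h, Atp5j and Atp5o) and the membrane part (Atp5j2, Atp5k and Atp5l). They were below 0 in TAC against sham, from -0.35 ± 0.25 for Atp5k to -0.09 ± 0.32 for Atp5f1. In LD against TAC 8 of these 9 were above 0, up to 0.41 ± 0.27 for Atp5c1, and Atp5f1 was at -0.03 ± 0.32. Leaving out TAC replicate 3 put the 9 members between -0.34 and 0.08 in TAC against sham and between -0.01 and 0.23 in LD against TAC. Atp5o varied little over the libraries (7.38% coefficient of variation), though 47.9% of its exon bases overlap another annotated gene.

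The lower level in TAC replicate 3 differed between members with their GC content, given here as a description. Across the 43 members the Spearman correlation of this library's deviation from the sham mean with the GC content of the main transcript was -0.65, and across 10987 tested genes it was -0.38. The 22 members at or above the median GC content of 51.6% had a median deviation of -0.75, and the 21 below it of -0.13. Members of low GC content lay on both sides of 0: Cycs (40.8% GC) deviated by 0.89 and Uqcrc2 (44.4%) by 0.40, but Atp5s (39.0%), the lowest in GC, by -0.43 and Cox7b by -0.27. Atp5g2 (56.7%) deviated by -1.25 and Uqcrq (57.8%) by -0.98. Cox6a1 (58.8%) and Cox8a (58.5%), forms of most tissues, deviated by -0.14 and -0.35, less than their heart partners Cox6a2 (52.8%, -1.06) and Cox8b (55.8%, -0.93), and Cox7a2 (51.9%) deviated by -0.22, against -0.95 for Cox7a1 (54.7%). The same correlation across members was 0.53 in sham replicate 3 and -0.58 in sham replicate 2, and lay between -0.31 and 0.28 in the remaining 6 libraries. Genes are not independent replicates, and the part of GC content in the group differences was not tested.

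**Figure D5:**
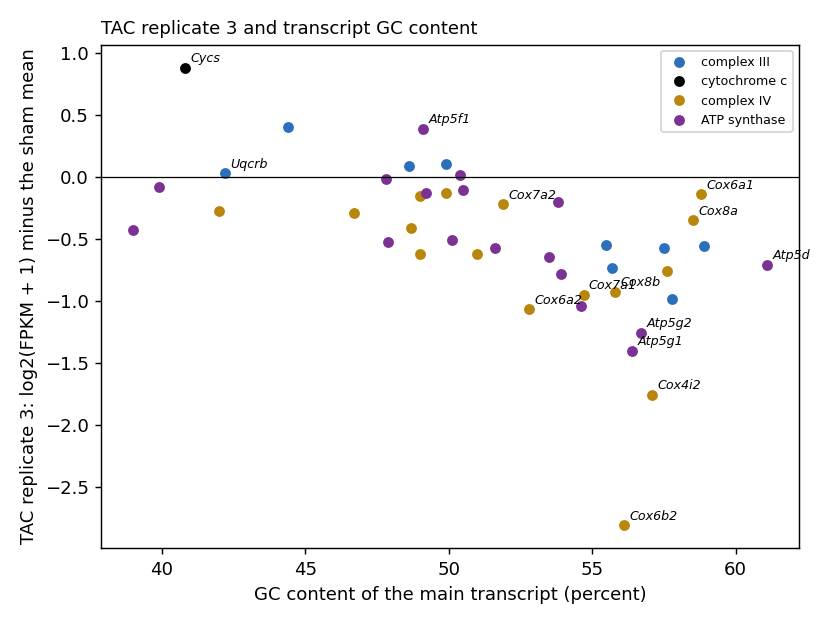
Deviation of TAC replicate 3 from the sham mean on the log2(FPKM + 1) scale against the GC content of the main transcript for the 43 tested members, coloured by complex. Cycs, Uqcrc2 and Atp5f1, below the median GC content, lie highest, Atp5s, the lowest in GC content, lies at -0.43, and Atp5g1, Atp5g2 and Cox4i2 are among the lowest at high GC content, while Cox6a1 and Cox8a lie closer to 0.

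Other genes of the respiratory chain were read beside the members. The list of Nduf genes of complex I (37 tested) had a median of -0.19 in TAC against sham and 0.22 in LD against TAC. It holds Ndufa4, now counted as a complex IV subunit, and its relative Ndufa4l2, and without both the medians were -0.19 and 0.28. The medians were -0.21 and 0.32 for complex II (4 tested). In neither list did a gene reach an unadjusted limma p under 0.05 in any comparison. The 32 tested assembly factors of complexes III and IV and the ATP synthase had medians of -0.09 in TAC against sham, 0.00 in LD against TAC and -0.02 in LD against sham. Genes of phosphate, ADP and ATP transport and ATP synthase control (8 tested) stood at -0.04, 0.01 and -0.01.

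Among the assembly factors 4 had an unadjusted limma p under 0.05 in some comparison, 2 of the 32 in each, with 5.43% of all tested genes in TAC against sham, 8.82% in LD against TAC and 5.11% in LD against sham. Surf1, needed to build complex IV, had 28.7, 37.2 and 31.4 FPKM in LD, 37.2, 40.1 and 26.2 in TAC and 24.96, 22.04 and 19.6 in sham, with a difference of 0.60 ± 0.24 in TAC against sham and 0.53 ± 0.24 in LD against sham (limma adjusted p = 0.838 and 0.875). Operated hearts were above every sham heart, with decoction and without. Of all tested genes 5.22% were higher without overlap in TAC against sham and 4.47% in LD against sham. Uqcc3, a complex III assembly factor, had 143, 178 and 249 FPKM in LD, 121, 103 and 132 in TAC and 156, 149.5 and 148 in sham, and LD against TAC differed by 0.64 ± 0.23 (limma adjusted p = 0.537). Cox14, a complex IV assembly factor, had 370.2, 478 and 545 FPKM in LD, 342, 404 and 203 in TAC and 368, 348 and 313 in sham and differed by 0.59 ± 0.26 in LD against TAC, and by 0.30 without TAC replicate 3. Cox20, a chaperone of complex IV subunit 2, had 0.686, 0.313 and 0.741 FPKM in LD, 0.337, 24.1 and 1.01 in TAC and 24.8, 19.2 and 17.04 in sham. Its values formed a high and a low set, with all sham libraries and TAC replicate 2 high and the other 5 libraries low. The difference was -3.75 ± 0.76 in LD against sham (limma adjusted p = 0.290), and 91.1% of its exon bases overlap Hnrnpu, so its reads may be split with that gene.

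Transcription regulators of respiratory genes (9 tested) had medians of -0.12 in TAC against sham, -0.19 in LD against TAC and -0.42 in LD against sham, where all 9 were below 0. All tested genes had medians of 0.00, -0.10 and -0.11 in the same comparisons, with 62.8% of them below 0 in LD against sham. An unadjusted limma p under 0.05 with a lower value was found for 2 of the 9 in TAC against sham (2.58% of all tested genes). It was found for 1 in LD against TAC (6.31% of all) and 1 in LD against sham (3.59% of all). With a higher value it was found for none. Esrra, an oestrogen-related receptor, had 137, 92.3 and 84.4 FPKM in LD, 85.3, 80.6 and 106 in TAC and 159, 114 and 143 in sham. All TAC libraries were below all sham libraries (4.62% of all tested genes were lower without overlap), by -0.61 ± 0.24 (limma adjusted p = 0.842). Ppargc1b differed by -0.63 ± 0.28 in TAC against sham (limma adjusted p = 0.909), and by -0.80 to -0.43 over the single libraries left out. Its groups overlapped, with 5.32 FPKM in TAC replicate 1 and 5.275 in sham replicate 2. In the same comparison 3 of the 9 regulators were above 0: Ppargc1a (0.09), Esrrg (0.04) and Gabpa (0.21). Gabpa, the DNA-binding GABP subunit, had 8.68, 7.95 and 4.72 FPKM in LD, 10.8, 13.98 and 11.8 in TAC and 11.4, 9.58 and 10.3 in sham. LD was below TAC in all libraries (8.14% of all tested genes were lower without overlap), by -0.73 ± 0.26 (limma adjusted p = 0.537). Its start lies head to head with that of Atp5j, and 7.0% of its exon bases overlap that gene.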

How the data were processed

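RNA sequencing of 9 mouse hearts (3 each of LD, TAC and sham) was available as one table. The deposited values are FPKM per gene symbol, made by the authors. The submitters' processing notes name, for the genome build GRCm38, the aligner HISAT2 2.1.0, the counter HTSeq 0.7.2, Cufflinks 2.2.1, DESeq, the read trimmer fastp 0.20.0 and the base caller CASAVA 1.8. The role of each tool here, and the gene annotation, are not stated in those sources. Per the labels' protocols the libraries were poly-A selected and randomly primed, and no step that marks strand is named, so overlapping genes on opposite strands cannot be told apart.

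Whole fragments, library totals (7.43 to 18.1 M) and gene lengths were recovered from the steps of the deposited FPKM. A gene of 1 kilobase with 3 fragments has 0.404 FPKM in LD replicate 1, the shallowest library, and 0.166 in sham replicate 1, the deepest, which covers counting error only. Values were tested as log2(FPKM + 1), which understates changes of low genes. Genes with at least 1 FPKM in at least 3 libraries (11380) entered limma 3.58.1 in R 4.3.3 with 3 group means in a single fit (6 residual degrees of freedom), an empirical Bayes trend and Benjamini-Hochberg adjustment over all tested genes. Isoform ratios were compared with exact permutation tests. The fit was tested on simulated data. Coordinates, GC content, exon overlap and shared 100-base stretches are from GENCODE M21, and promoters from RefSeq.

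The members, the lists and the tests were chosen with earlier results of these data known. Values of every library are given for the isoform groups, Cyc1, Cycs, Uqcrc1, Uqcrc2, Uqcrfs1 and Atp5b, for members with an unadjusted p under 0.05, and for the 3 members of smallest p in each direction of each comparison; Uqcrq, Cox7c and the list genes Surf1, Uqcc3, Cox14, Cox20, Esrra and Gabpa were added after their values were seen. Protein sequences were not used here.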

Additional observations from a re-analysis of the deposited data

How the results depend on the processing

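Over 17 alternatives (pseudocount, filter, scaling, 2 groups only, no trend, replicate block, each library left out, TAC and LD replicates 3 left out together, and voom on recovered fragments, the last chosen after seeing the data), no member passed the adjusted threshold in any comparison. The members' median ran from -0.23 to -0.04 in TAC against sham, from 0.05 to 0.35 in LD against TAC and from -0.02 to 0.15 in LD against sham. Genes past the threshold numbered 0 to 13 in TAC against sham when single libraries were left out and 4 with voom. In LD against sham they numbered 0 to 8 when single libraries were left out, 10 with 2 groups only and 3 with voom. In LD against TAC none passed in any alternative, where 1004 genes had an unadjusted p under 0.05 and 1180 with voom.

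Leaving out single libraries gave log2 ratio differences of both signs for Cox6a2 to Cox6a1 (-0.747 to 0.055 in TAC against sham, -0.078 to 0.687 in LD against TAC, -0.37 to 0.29 in LD against sham) and for Cox7a1 to Cox7a2 (-0.20 to 0.35, -0.47 to 0.15 and -0.32 to 0.13 in the same order). For Cox8b to Cox8a it did so in LD against TAC (-0.039 to 0.383) and in LD against sham (-0.28 to 0.15), and not in TAC against sham (-0.34 to -0.07). Over all 43 members the sign turned in at least 1 alternative for 25 in TAC against sham, 23 in LD against TAC and 25 in LD against sham. Of the members named by their p in a comparison, it turned for Cox6a1 in TAC against sham (-0.16 to 0.21) and for Cycs in TAC against sham (-0.27 to 0.73, and -0.27 without TAC and LD replicates 3 together). It turned in LD against TAC for Atp5s (-0.315 to 0.034, and 0.009 after median-of-ratios scaling) and Atp5sl (-0.507 to 0.032). The cause was not tested.

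Replicate numbers are shared between the groups, but same-numbered libraries correlated between -0.24 and 0.15 in their deviations from the group means. These values give no sign that the numbers pair the samples, but with 3 libraries per group they cannot exclude it. At most 1 of 3 libraries correlated best with its own number. A fit with the replicate block called 0 genes in each comparison and left the members' medians at -0.16, 0.21 and 0.02.

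The members with the fewest fragments were Cox7b2 (at most 2 in a library) and Cox6b2 (at most 102), and the smallest library held 7.43 M.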
